A study of Arabidopsis thaliana with 9 samples.

Results

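TAA1 and TAR2 are tryptophan aminotransferases of auxin synthesis in Arabidopsis, and their recovery as preys in a yeast two-hybrid screen was measured by sequencing. The 2 genes were taken by their identifiers, AT1G70560 for TAA1 and AT4G24670 for TAR2, from a table of 10224 genes. TAA1 had a row and TAR2 had none, so by the rule of choice TAR2 counts as not detected and 1 of the 2 members has values. TAA1 was chosen by its read level, which was known to be high in the SCAB1 libraries. Its levels by bait are therefore given as a description, without a test.

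In plants TAA1 and its relatives transfer the amino group of tryptophan, with pyridoxal phosphate as cofactor, and release indole-3-pyruvate. YUCCA flavin monooxygenases then turn indole-3-pyruvate into indole-3-acetic acid, the main auxin. TAA1 is known from mutants defective in shade avoidance and in the response of roots to ethylene, and together with TAR2 it is needed for normal organ and vascular development. RefSeq also lists TAA1 under the names WEI8, SAV3 and CKRC1.

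In the screen a bait protein and a library protein, the prey, each carry part of a split transcription factor, and yeast in which they meet make HIS3 and so form colonies on medium that lacks histidine. PKS5 and SOS2, 2 of the 3 baits, are kinases of the group that calcineurin B-like calcium sensors regulate, and SCAB1 is an actin-bundling protein of plants. All 9 libraries were made from an Arabidopsis cDNA library carried by more than 3000 yeast colonies each, selected without tryptophan, leucine and histidine in the presence of 1 mM 3-AT, which inhibits HIS3. Each bait had 1 library at each recovery time of 0, 2 and 4 h, and these are its replicates 1, 2 and 3. No library is labelled as unselected, so the other baits are the background for each bait. No label calls the libraries of a bait separate cultures, so p-values here cover the spread between these libraries, which may be technical.

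A library held 1640114 to 3288437 reads, and levels are given as CPM, the reads of a gene per 1000000 reads of the library. Levels are not corrected for the length of a gene, since a read marks where vector meets insert. A count of 0 allows up to 3 reads, or 0.912 to 1.83 CPM depending on the library, and this limit covers counting error only, since copies made by PCR are not independent molecules. TAR2 has no row in place of a count of 0, so this limit applies to it only if a missing row means no reads, which the files do not say. TAR1, AT1G34040 and AT1G34060, the other genes that were listed as relatives of TAA1, also had no row. TAA1 was thus the 1 gene of the 5 in the family list with a row, against 37.0% of the 27562 protein-coding genes. Since TAA1 was chosen by its read level, nothing is read from this count.

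With SCAB1 as bait TAA1 was among the most abundant preys, and with either kinase it was a minor one. It had 73537 reads at 0 h, 86445 at 2 h and 126303 at 4 h in the SCAB1 libraries. These were levels of 36743, 37793 and 77009 CPM, or 3.67%, 3.78% and 7.70% of all reads. The 0 h and 2 h libraries were close together and the 4 h library stood above both.

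With PKS5 the TAA1 level was 255 CPM at 0 h, 138 CPM at 2 h and 259.9 CPM at 4 h, from 538, 419 and 543 reads. With SOS2 it was 274, 185 and 715 CPM, from 602, 362 and 2352 reads. All 6 values lay far above the limit that a count of 0 allows. The ranges of the kinase baits overlapped each other, and neither came near that of SCAB1.

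**Figure D1:**
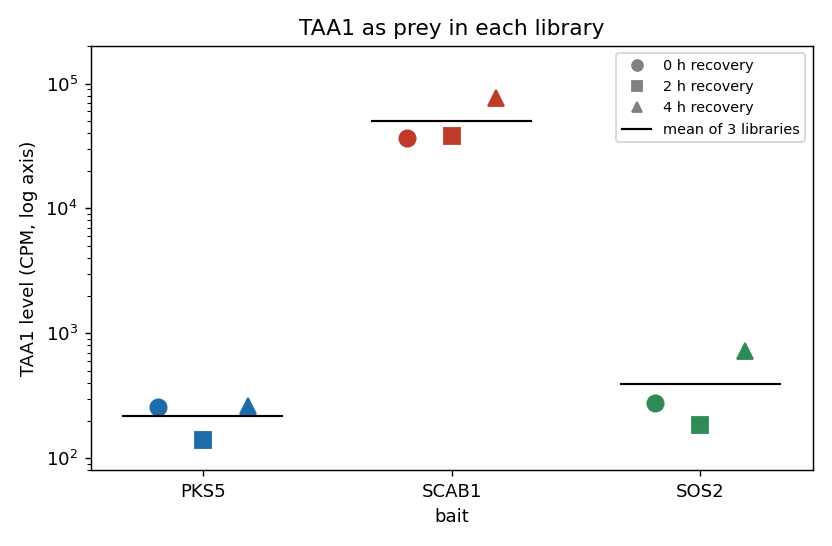
TAA1 level in CPM on a log axis for each bait, with 1 point per library, shaped by recovery time, and a black line at the mean of 3 libraries. The 3 SCAB1 libraries sit between 36743 and 77009 CPM and the 6 others between 138 and 715 CPM.

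The mean level of TAA1 was 50515 ± 22950.1 CPM (SD, n = 3) with SCAB1, 392 ± 284 CPM with SOS2 and 218 ± 68.7 CPM with PKS5. As a ratio of means, SCAB1 stood 232-fold above PKS5 and 129-fold above SOS2. The SOS2 mean leaned on the 4 h library, without which it was 229.8 CPM and the ratio 219.9-fold, a setting added after seeing the data. The lowest SCAB1 library was 51.4 times the highest library of the other baits. On the log2(CPM + 1) scale the mean of SCAB1 lay 7.49 above the average of the other baits. That all SCAB1 libraries exceed all 6 others in CPM was true of 288 of the 3811 genes with enough reads to be tested (7.56%), and since TAA1 was chosen for this pattern nothing is read from it.

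By reads TAA1 ranked 7 of 7321 genes with a read at 0 h, 8 of 5753 at 2 h and 1 of 5450 at 4 h in the SCAB1 libraries. By mean CPM it ranked 5 with SCAB1, 162 with PKS5 and 261 with SOS2. In the SCAB1 order the next gene above TAA1 was GAPC1, a cytosolic glyceraldehyde-3-phosphate dehydrogenase, at 51063 ± 2600.1 CPM (SD, n = 3). The next below was MS2, a methionine synthase, at 46267 ± 4351 CPM. Both means lie within 1 SD of TAA1, so its place among these neighbours is not set by the data.

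The level of TAA1 varied more between SCAB1 libraries than that of most preys as abundant. Its SD was 45.4% of its mean, against a median of 13.0% over the 50 genes with the highest mean in SCAB1, and 3 of the 50 had a larger one. Its highest SCAB1 library was 2.10 times its lowest, against a median of 1.29 times for the 50 genes. Without the 4 h library its mean was 37268 CPM.

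How TAA1 stood elsewhere was set beside the other leading SCAB1 preys. Its mean with PKS5 was 0.431% of that with SCAB1, and its mean with SOS2 was 0.775%. With PKS5, 4 of the other 9 among the 10 highest SCAB1 genes had a smaller share, from 0.0497% for ATPQ to 0.196% for MS2. The largest share with PKS5 was that of AT1G70790, at 324% of its SCAB1 level. Of the 10 highest SCAB1 genes ATPQ, which belongs to the ATP synthase of mitochondria, was the 1 with a smaller share than TAA1 in SOS2, at 0.0691%. Several of the others were also abundant with SOS2, with GAPC1 at 47.3% of its SCAB1 level and MS2 at 5.11%.

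The deposited table also counts unique reads, named distinct reads below. What makes a read distinct was not given in the sources used here. TAA1 had 55 distinct reads with SCAB1 at 0 h and 40 at 2 h. It had 5, 3 and 4 with PKS5 at 0, 2 and 4 h, and 6, 8 and 6 with SOS2. Distinct reads were highest with SCAB1, in the 2 libraries of that bait where they could be used. Since TAA1 was chosen by its reads in the SCAB1 libraries, this is not independent of that choice. At 4 h the SCAB1 column was left out, because all 10224 of its cells repeat the 2 h library.

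The excess in SCAB1 was far smaller in distinct reads than in reads. Per 1000000 distinct reads, the mean of the 2 SCAB1 libraries was 10.6 times that of the 6 others, and the lower of the 2 was 7.87 times the highest of the 6. A smaller excess in distinct reads was not particular to TAA1. MS2 had 62 to 78 distinct reads with SCAB1 and 5 to 6 with PKS5, at means of 46267 and 90.8 CPM. GAPC1 had 194 to 259 with SCAB1 and 40 to 60 with PKS5, at means of 51063 and 319 CPM. By distinct reads TAA1 ranked 56 at 0 h and 38 at 2 h with SCAB1, against 7 and 8 by reads. Among the 10 genes with the highest SCAB1 mean TAA1 had the fewest distinct reads in both libraries, the other 9 having 65 to 311 at 0 h and 45 to 235 at 2 h.

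TAA1 had many reads per distinct read. With SCAB1 this ratio was 1337 at 0 h and 2161 at 2 h. The 20 genes nearest to TAA1 in read number had medians of 506 and 976 in those libraries, and TAA1 was above 19 of the 20 in both. With PKS5 the ratio for TAA1 was 108, 140 and 136, where the 20 nearest genes had medians of 14.4, 14.7 and 27.7. TAA1 was above 20, 18 and 20 of the 20.

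With SOS2 the reads per distinct TAA1 read were 100, 45.3 and 392 at 0, 2 and 4 h, against medians of 43.1, 29.5 and 122. TAA1 was above 19, 18 and 20 of the 20 nearest genes. The 4 h SOS2 library held 2352 TAA1 reads and the 0 h library 602, yet both held 6 distinct reads. The higher SOS2 level at 4 h was thus a rise in reads per distinct read and not in distinct reads.

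**Figure D2:**
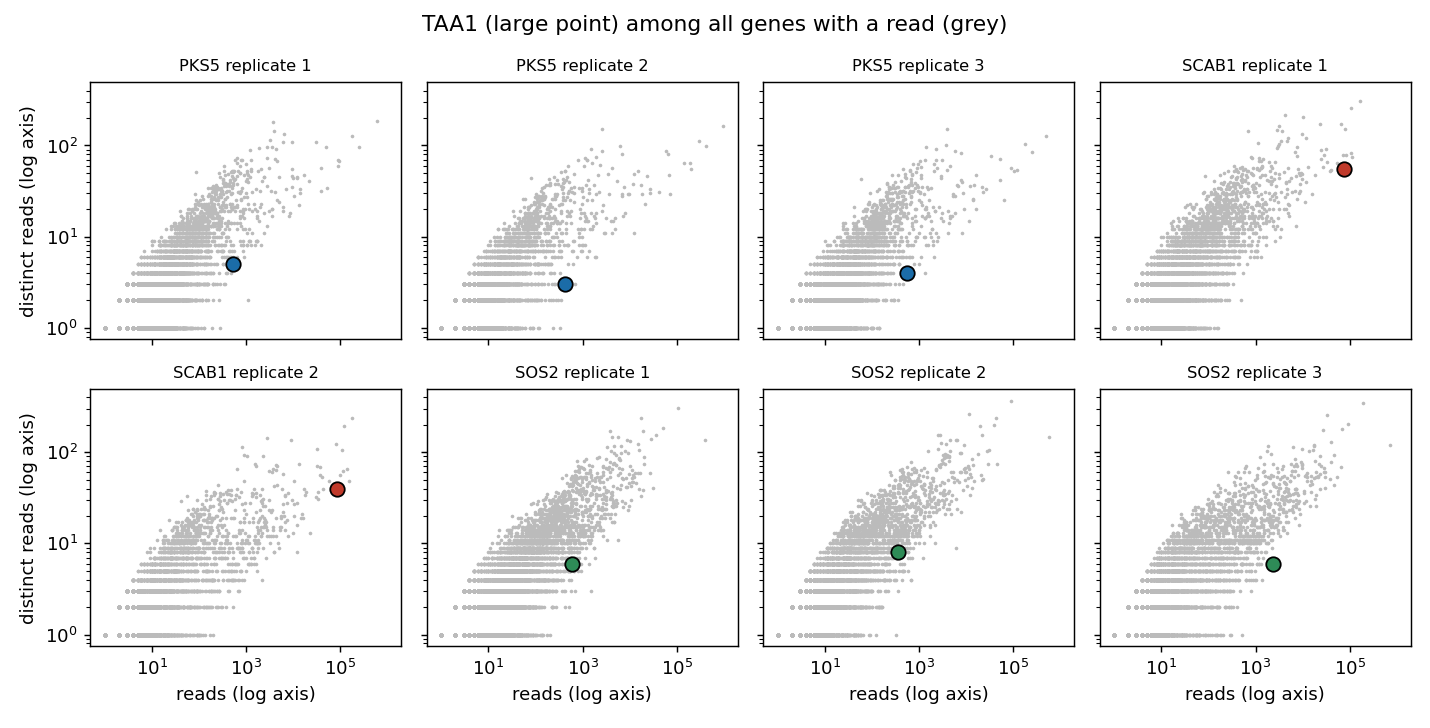
Distinct reads against reads on log axes for every gene with a read (grey) and TAA1 (large point) in the 8 libraries whose distinct reads could be used. TAA1 lies low in the cloud for its reads in each panel, with 55 and 40 distinct reads in the SCAB1 panels and 3 to 8 in the others.

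Whether TAA1 differed between the kinase baits was tested, since this does not compare the SCAB1 level by which it was picked. The SCAB1 libraries still entered the scaling and the estimate of spread. The fit was limma-voom over all 9 libraries and 3811 genes, with TMM factors, which rescale libraries for a few very abundant genes. The log2 difference of SOS2 from PKS5 was 0.34 (SE 0.60, 95% interval -0.91 to 1.59), and it did not pass (adjusted p = 0.748 by limma-voom). In that comparison 1217 of the 3811 genes were called at an adjusted p under 0.05 (31.9%), 24.7% as higher and 7.22% as lower with SOS2. The sign rested on the 4 h SOS2 library, without which the difference was -1.0 (adjusted p = 0.0922 by limma-voom). Without SCAB1 replicate 1 the difference was 0.10 (adjusted p = 0.922 by limma-voom). Over the alternatives run, the adjusted p was 0.0922 to 0.989.

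Recovery time was compared next, with bait as a block. In CPM the TAA1 level at 4 h was 1.02 times that at 0 h with PKS5, 2.10 times with SCAB1 and 2.61 times with SOS2. From 0 h to 2 h it changed to 0.543 times with PKS5, 1.03 times with SCAB1 and 0.676 times with SOS2. TAA1 was highest at 4 h with each of the 3 baits, a pattern noticed in the values and shared by 21 of the 3811 tested genes (0.551%). With PKS5 that rested on 543 reads at 4 h against 538 at 0 h, so nothing is read from the pattern.

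The order depended on how libraries were scaled. With TMM factors the SCAB1 values were 21362, 66972 and 119597 per 1000000 reads at 0, 2 and 4 h, so that the 2 h library also stood well above the 0 h library. The SOS2 values were then 114, 172 and 1007, and the PKS5 values 184, 316 and 181. With that scaling PKS5 had its highest TAA1 value at 2 h, and the pattern of a maximum at 4 h no longer held for all baits.

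Under limma-voom the log2 difference of 0 h from the mean of 2 and 4 h was -1.32 for TAA1 (SE 0.42, 95% interval -2.18 to -0.46). It did not pass after adjustment over all genes (adjusted p = 0.296, unadjusted p = 0.00375). Of the 3811 genes 0 were called in this comparison by limma-voom (0%), and 378 had an unadjusted p under 0.05. Without PKS5 replicate 3 the TAA1 difference was -1.87 and passed (adjusted p = 0.0124 by limma-voom), and over the alternatives the adjusted p ran to 1.00. On unscaled log2(CPM + 1) the difference was -0.18, and an exact permutation test of the times within baits gave a two-sided p = 0.704 (27 arrangements, smallest possible p 0.037).

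Genes were ranked by how closely their level followed that of TAA1 over the 9 libraries, a measure that can return only genes high with SCAB1. On log2(CPM + 1) the 5 highest Pearson correlations were 0.991 for AT2G37130, 0.990 for NFD6, 0.988 for ATPQ, 0.986 for PP2C74, a protein phosphatase of the 2C class, and 0.986 for AT3G12010. Their mean levels with SCAB1 ran from 171 CPM for AT3G12010 to 44856 CPM for ATPQ. PP2C74 and AT3G12010 reached the filter through the SCAB1 libraries alone. All points come from the same 9 libraries, which split into 3 high and 6 low for TAA1, and 138 of the 3810 other tested genes (3.62%) had a correlation of at least 0.9.

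AT2G37130, the closest, had 6020, 6564 and 10244 CPM with SCAB1 at 0, 2 and 4 h. Its step up at 4 h is part of what the ranking selects for, so nothing is read from it. AT2G37130 stood at 83.7 ± 31.0 CPM (SD, n = 3) with PKS5 and 125 ± 29.9 CPM with SOS2. NFD6 had 7864, 9797 and 12019 CPM with SCAB1 and at most 9.43 CPM in any other library. ATPQ had 38766, 46121 and 49681 CPM with SCAB1, against 22.3 ± 10.5 CPM with PKS5.

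**Figure D3:**
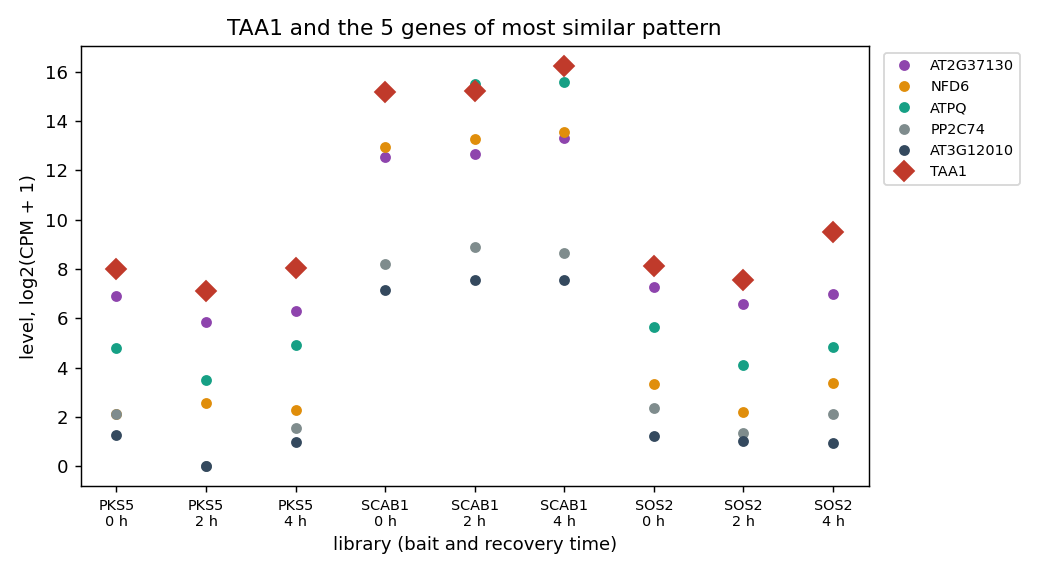
Level as log2(CPM + 1) of TAA1 (red diamonds) and of the 5 genes with the most similar pattern (circles) in each of the 9 libraries. All 6 genes are high in the 3 SCAB1 libraries, and TAA1 has the highest low values of the 6, at 138 to 715 CPM.

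Genes next to TAA1 on chromosome 1 were looked up by their order in RefSeq. AT1G70550 and AT1G70570, its nearest protein-coding neighbours, had no row. CRK3, a receptor-like kinase 3 genes away, had at most 26.9 CPM in any library. Since the files do not say whether a missing row means no reads, the reads of the adjacent genes cannot be judged.

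Genes of tryptophan synthesis and of the YUCCA step had few rows and low levels. Over the genome a missing row was common, as 37.0% of the 27562 protein-coding genes had a row and 13.8% were tested. Of the 11 YUCCA genes and VAS1, which returns indole-3-pyruvate to tryptophan, 2 had a row and 0 reached the filter for testing. The highest was YUC8, at 3.19 CPM in SOS2 replicate 1. Of 12 genes of tryptophan synthesis 3 had a row and 1 was tested, ASB1, a subunit of anthranilate synthase, with no call. PAI1 was the highest of them at 6.83 CPM, and it shares near-identical sequence with PAI2, which is listed at the same maximum. Among these genes and the TAA1 family, TAA1 was the 1 gene above 10 CPM in any library. Since TAA1 was chosen by its level, nothing is read from this. Of 11 genes listed under other uses of tryptophan 7 had a row and 3 were tested. The tested genes were NIT1, a nitrilase, at up to 3844 CPM, NIT2 at up to 37.0 CPM and the aldehyde oxidase AAO1 at up to 17.0 CPM. The others with a row, SUR1, SOT16, UGT74B1 and NIT3, had at most 6.37 CPM in any library.

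Across all lists of auxin genes and of other aminotransferases, 69 of 134 genes had a row and 34 were tested. Of all protein-coding genes 37.0% had a row and 13.8% were tested. Each bait was set against the mean of the other baits by limma-voom, and TAA1 was left out of the counts. With SCAB1, 2 genes were higher and 8 lower of the 34, against 14.5% and 20.7% of all tested genes, or 35.2% called. With PKS5, 4 were higher and 5 lower, against 6.01% and 21.6%, or 27.7% called. With SOS2, 7 were higher and 7 lower, against 27.1% and 13.6%, or 40.7% called. Among those higher, ABCB1 and BCAT4 reached the filter through the SOS2 libraries alone, so nothing is read from their calls with any bait. The shares called, at 29.4%, 26.5% and 41.2%, were near those of all genes. The median log2 differences of the lists were -0.03, 0.18 and -0.03 for SCAB1, PKS5 and SOS2, against -0.20, -0.14 and 0.16 for all tested genes.

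Of the 10 tested aminotransferases outside the TAA1 family, 1 was higher and 3 were lower with SCAB1, against 14.5% and 20.7% of all tested genes. None reached the level of TAA1 there, and since TAA1 was chosen by that level nothing is read from this. The highest in SCAB1 was AGT1, a peroxisomal aminotransferase of photorespiration, at 966 ± 159 CPM (SD, n = 3), and its 1 call was as lower with SOS2. GGT1, also of photorespiration, had 365 ± 28.8 CPM with SCAB1, 915 ± 289.6 with SOS2 and 75.8 ± 37.5 with PKS5. It was higher with SOS2 (log2 difference 2.04, adjusted p = 0.000677 by limma-voom). BCAT4, which acts in glucosinolate synthesis from methionine, had 40.1 ± 9.23 CPM with SOS2, and it reached the filter through those libraries alone.

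In the auxin lists GH3.5, which conjugates auxin to amino acids, was the 1 of 24 tested genes called higher with SCAB1, against 14.5% of all tested genes, and 5 of the 24 were lower, against 20.7%. It had 256, 315 and 266 CPM there against 155 ± 27.1 CPM (SD, n = 3) with SOS2 and 19.7 ± 12.1 with PKS5 (log2 difference 2.87, adjusted p = 6.88e-06 by limma-voom), and with distinct reads it was not called (adjusted p = 0.84). NIT1 was higher with SOS2, at 3144 ± 696 CPM against 313 and 268, and how reads were divided between NIT1 and its close copies was not given. The auxin transporter ABCB1, at 68.2 ± 29.9 CPM with SOS2, passed the filter through those libraries alone. The response repressor IAA17 and the ubiquitin ligase scaffold CUL1 were higher with PKS5, at 129 ± 39.8 and 94.2 ± 82.3 CPM.

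In all, 33 calls fell on 17 list genes. The calls of NIT1, ABCB1, GGT1, BCAT4 and, as lower, IAA17 with SOS2 and of IAA17 and CUL1 with PKS5, 7 in all, were lost under none of the alternatives that gave them a value. For ABCB1 and BCAT4 that is little support, since without any 1 SOS2 library they no longer passed the filter and had no value. The other 26 calls, among them those of AAO1, NIT2, AFB2, ASK1, IAA16, ASP1, ASP2, TAT3, AGT1 and ACS10, were lost under at least 1 alternative.

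**Figure D4:**
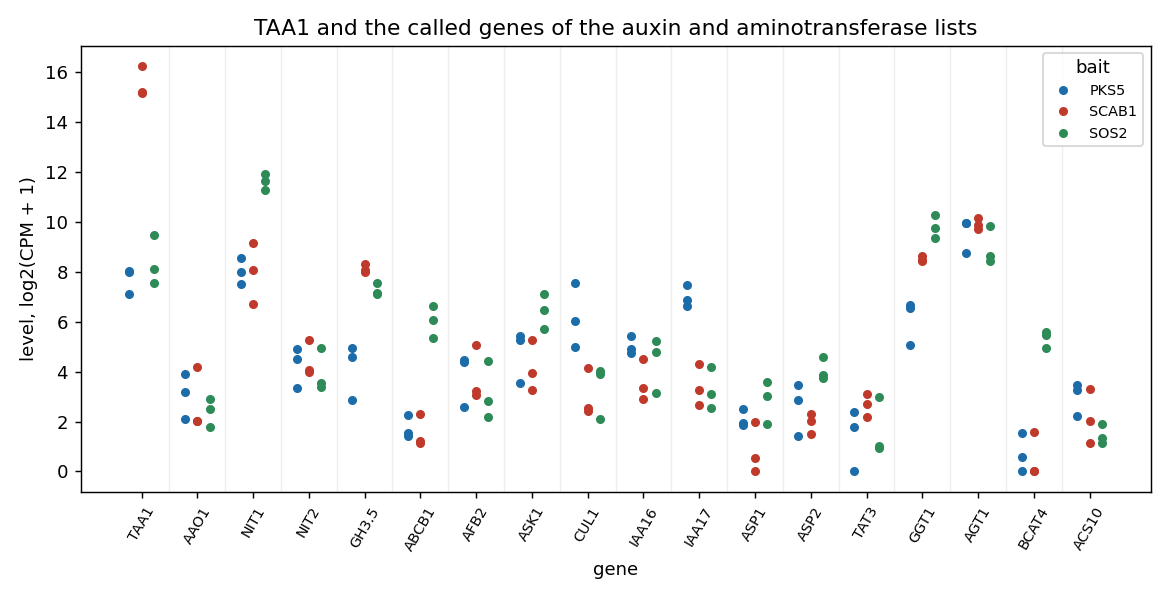
Level as log2(CPM + 1) of TAA1 and of the 17 called list genes, with 1 point per library coloured by bait. TAA1 with SCAB1 is above every other point, and the next highest genes are NIT1 with SOS2, at 3144 CPM on average, and GGT1 and AGT1.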

How the data were processed

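Prey inserts were amplified by PCR from yeast plasmids, sheared to 200 to 300 bp and enriched for fragments with 29 bp of vector sequence, per the labels' protocols. CASAVA, HISAT2, cutadapt 1.18 and, as genome build, TAIR10 are listed per the submitters' processing notes, without their roles. The way reads were given to genes was not given in the sources used here. Per the file headers the authors deposited, per gene and library, the count of reads and that of unique reads. These are whole numbers without normalization, and a mark in empty cells was taken as 0. The unique-read column of SCAB1 replicate 3 was left out as a copy of replicate 2.

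Symbols came from RefSeq (10201 of 10224 identifiers matched). Its assembly, TAIR10.1, differs in name, so its coordinates served only to order the genes on chromosome 1. No protein or promoter sequence was used here. Groups were the baits in the labels. A gene was tested if 3 or more libraries held the CPM that 10 reads give in a library of median size, and all libraries together 15 reads (3811 genes). Tests used limma-voom (limma 3.58.1, R 4.3.3) with recomputed TMM factors and Benjamini-Hochberg adjustment over all tested genes, and everything else Python 3.11.15. The fit was also run on simulated counts that gave every gene the same spread and lacked the scaling shifts of these libraries. That run does not show how the fit behaves on these data. The count models usual for such data were not used, because marks in place of 0 kept the columns from passing as plain counts in a check of units.

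The members and gene lists were chosen with earlier results of these data known. Genes were named by a rule: the members, the 5 closest in pattern, the neighbours of TAA1 in level in SCAB1, each list's called genes and each list's highest gene. Leading SCAB1 preys, genomic neighbours and genes set beside TAA1 in distinct reads were added after the values were seen. Alternatives were other scalings, filters, distinct reads, other codings of time, blocks and leaving out each library.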

Additional observations from a re-analysis of the deposited data

How the results depend on the processing

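The TAA1 mean in SCAB1 was 81183 per 1000000 reads with genes above 5% of any library, TAA1 among them, left out of the total, and 1625 per 1000000 distinct reads, a different quantity. It ran from 37268 to 57401 CPM without 1 library. Its log2 difference from the other baits was 3.41 in distinct reads and 7.14 to 7.76 without 1 library. The TAA1 difference of SOS2 from PKS5 turned to -0.62 with at least 100 reads (adjusted p = 0.163 by limma-voom) and to -1.0 without SOS2 replicate 3, in a range of -1.0 to 0.82 without 1 library. TAA1 had too few distinct reads to be tested on them. The difference of 0 h from later times passed with at least 100 reads (-1.12, adjusted p = 0.048) and without PKS5 replicate 3, in a range of -1.93 to -0.78 without 1 library. In that comparison 352 genes were called when TMM factors were left out, 89 without genes above 5%, 38 without PKS5 replicate 3 and 19 with at least 100 reads. Comparing 4 h with 0 and 2 h, chosen after seeing the data, gave 1.30 for TAA1 (adjusted p = 0.474).

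List genes called numbered 9 for PKS5, 10 for SCAB1 and 14 for SOS2. They were 5, 4 and 7 with library size alone, 5 for PKS5 and 8 for SOS2 without genes above 5%, 2, 3 and 3 with distinct reads, 7 for SOS2 with at least 100 reads, and 6 for SCAB1 without the 0 h libraries, an alternative added after seeing the data. Without 1 library they ranged from 6 to 9, 4 to 12 and 9 to 14. Of all tested genes, 552 were higher and 790 lower in SCAB1, 325 and 806 without genes above 5%, 639 and 647 with no filter, 113 and 107 with distinct reads, 482 and 407 without the 0 h libraries, 513 and 445 without SCAB1 replicate 1, and 603 and 582, 560 and 578, and 684 and 595 without SOS2 replicates 1, 2 and 3, so that neither direction led under all settings. With distinct reads the differences of GH3.5 and GGT1 in PKS5, ASK1 in SCAB1 and AGT1 in SOS2 turned to 0.21, 0.079, 0.18 and 0.028. The cause of these shifts was not tested. With the replicate block, which is recovery time, the SOS2 difference of TAA1 was 0.21 and the list counts were 9, 14 and 15. Deviations of same-numbered libraries correlated at -0.02 to 0.22, and 4 of 9 libraries correlated best with their own number. The few distinct reads limit what the TAA1 levels of the kinase baits can show.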
